A study of Mus musculus with 6 samples.

Results

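The genes described here are those of cell death: the Bcl2 family, the caspases, and the adaptors, kinases and inhibitors that act with them. They were taken by symbol from a table of 12151 genes, as every row whose symbol begins with or equals one of a fixed set of apoptosis names, and 52 rows met that rule. Their levels were measured by RNA-seq in cultured mouse glioma cells of 2 kinds. The mNS cells were grown as neurospheres in serum-free medium with B-27, EGF, basic FGF and heparin, and are labelled glioma stem-like cells; their 3 libraries come from passages 72, 77 and 85. The GL261 cells, a mouse glioma line, were grown in DMEM with 10% fetal bovine serum and are labelled differentiated glioma cells; their 3 libraries come from passages 17, 33 and 34 by title, while the passage field of the last says 33. No treatment, genotype or age is given for either culture. Both media held the same antibiotics and β-mercaptoethanol. Line, medium and passage range differ together between the groups and cannot be told apart. Libraries of the same kind differ in passage by title, and nothing in the labels shows whether they were independently started cultures. The p-values thus measure only the spread between these libraries, in which passage and technical spread cannot be told apart.

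Apoptosis is run by caspases, proteases that are made as inactive precursors. In the mitochondrial route, BH3-only proteins such as BIM, BID and PUMA free or activate the effectors BAX and BAK, which open the outer mitochondrial membrane unless they are held by anti-apoptotic relatives such as BCL2, BCL-XL and MCL1. Released cytochrome c then assembles APAF1 and caspase 9 into the apoptosome, which activates the executioner caspases. In the receptor route, death receptors recruit FADD and caspase 8, a step that FLIP (Cflar) modulates, and XIAP and its relatives restrain caspases or their upstream complexes. Related machinery serves inflammation: caspases 1 and 4 cleave gasdermin D in pyroptosis, RIPK3 and MLKL carry out necroptosis, and TRAF proteins link TNF receptors to NF-κB and kinase signalling.

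Between 12534422 and 14225175 reads per library fell in listed genes, and 1 read was worth 0.0708 to 0.0773 CPM, the unit of the table (read counts scaled for library size with the authors' TMM factors). Among neural markers, Sox2 averaged 184 ± 15.1 CPM in mNS and 181 ± 41.0 CPM in GL261 (SD, n = 3 each, as in all such values below), while Olig2 averaged 437 ± 22.8 CPM in mNS and 8.54 ± 2.97 CPM in GL261. Prom1, a commonly used marker of glioma stem-like cells, and Egfr, also among the neural and glioma markers chosen, are not listed in the table. Of the 10 neural and glioma markers listed 5 rose in mNS and 4 fell, where 32.2% of all tested genes rose and 32.1% fell. Fabp7, a radial glia marker, was 27.7-fold and Slc1a3, a glutamate transporter of astroglia, 3.07-fold higher in mNS, along with Olig1, Olig2 and Pdgfra. Lower in mNS were the stem cell marker Nes (1.59-fold), Vim (1.98-fold), S100b (4.31-fold) and the astrocyte marker Gfap, with 4 reads in the mNS libraries together and 141 in the GL261 libraries. Of 7 neuron markers only Tubb3 was listed, and it was 26.4-fold lower in mNS. Of 10 macrophage and microglia markers 3 were listed, with summed levels of 8.496 to 10.1 CPM in mNS and 8.95 to 10.7 CPM in GL261, and no endothelial or lymphocyte marker of the lists used was listed. In bulk RNA, fewer cells that express a gene and less RNA of that gene per cell cannot be told apart.

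All 52 genes had a mean of at least 1 CPM over the 6 libraries and were tested. A gene was called at a limma adjusted p under 0.05, with the adjustment over all 12006 genes tested. By that rule 19 genes rose in mNS and 12 fell, while 21 were not called. The called share was 59.6%, where 64.3% of all tested genes were called; 36.5% of the apoptosis genes rose, against a background of 32.2%, and 23.1% fell, against 32.1%. Among the called genes, 13 of the 52 differed by 1 or more on the log2(CPM + 1) scale, against 19.7% of all genes. Of these 9 were higher in mNS (background 11.3%) and 4 were lower (background 8.47%). Called by edgeR's quasi-likelihood test on recovered reads, the apoptosis genes were the same 31 as with limma, against a background of 63.7%. The median absolute difference was 0.38 on that scale for the 52 genes and 0.40 for all tested genes. The values of mNS and GL261 did not overlap for 35 of the 52 genes (67.3%, against a background of 69.9%). Aifm3 and Birc3 had a mean under 1 CPM in GL261 and passed the filter through their mNS values. The rule matches 74 protein-coding symbols of GENCODE M21, of which 22 are not listed under that symbol, among them Fas, Pmaip1 (Noxa), Dapk1, Dapk2 and the 4 Bcl2a1 genes. A further match, gasdermin E, is listed under its older symbol Dfna5.

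**Figure D1:**
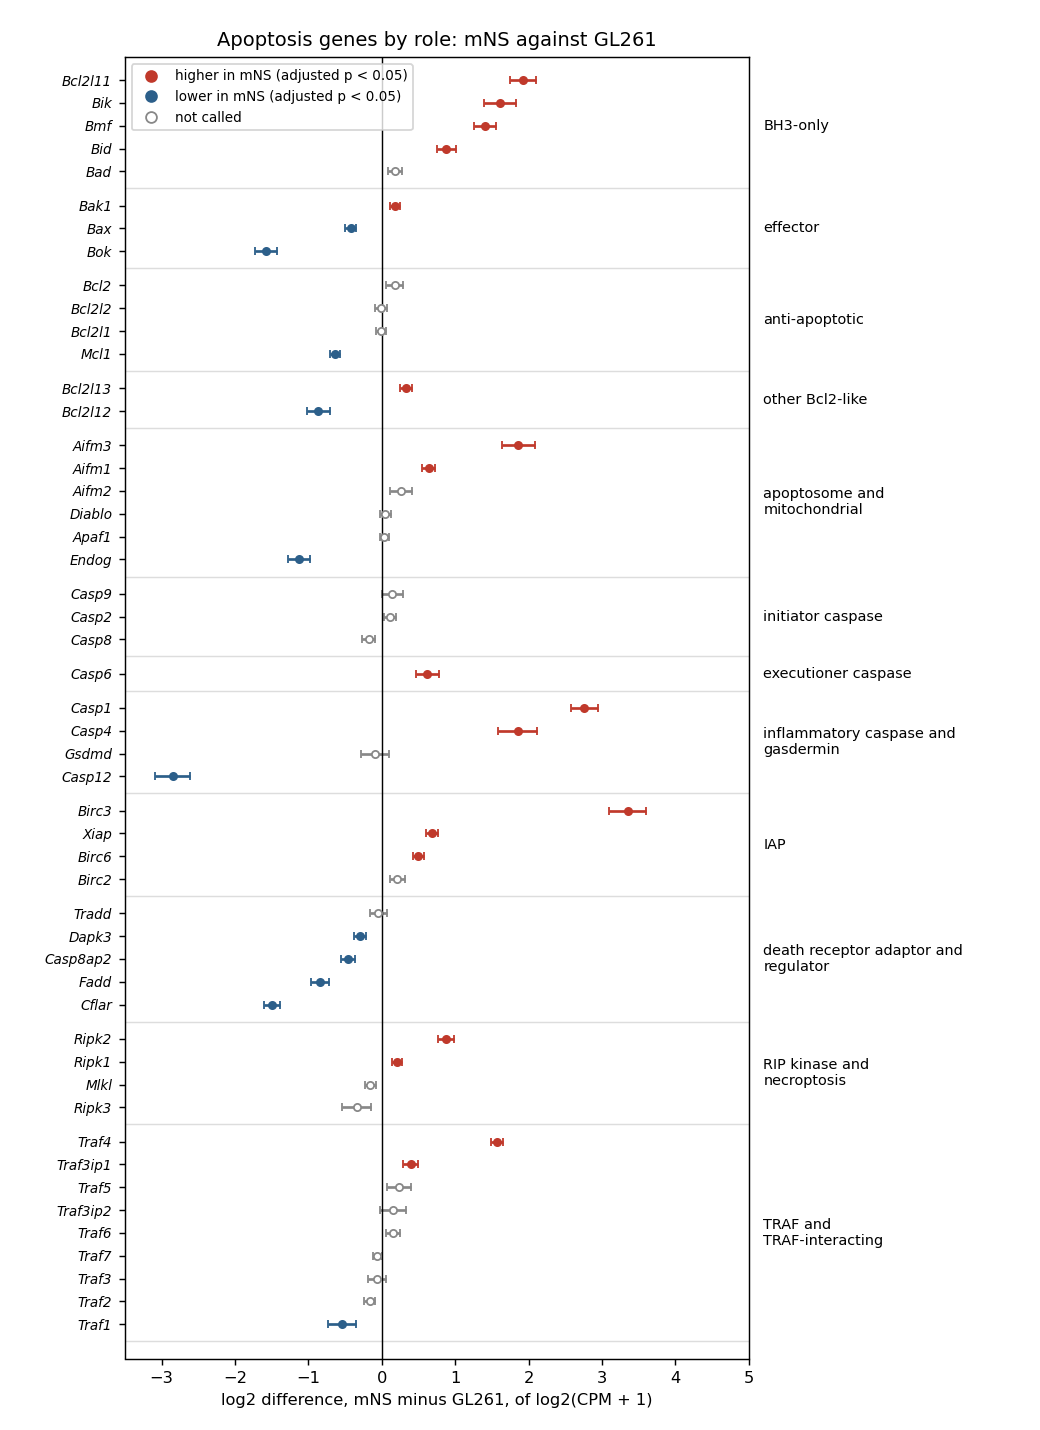
Each point is the difference between the mean log2(CPM + 1) of 3 mNS and 3 GL261 libraries for 1 gene, with its standard error, and 50 of the genes are shown, grouped by role. Red points are higher in mNS, blue points lower, and open points were not called by limma. All 5 BH3-only genes lie to the right and 4 of them were called, while no initiator caspase was called. Of all tested genes 64.3% were called.

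The BH3-only genes, the sensors that start the mitochondrial route, were mostly higher in the neurospheres: 4 of 5 rose and none fell, where 32.2% of all genes rose. Bcl2l11, which encodes BIM, had 22.6, 15.9 and 14.6 CPM in mNS at passages 72, 77 and 85, against 3.88, 4.41 and 3.32 CPM in GL261 at passages 17, 33 and 34. Every mNS library was above every GL261 library, and the ratio of the means was 4.57 (log2 difference 1.92 ± 0.18 SE, limma adjusted p = 2.14e-05). Bcl2l11 lies on chromosome 2 at 128126038 to 128162547 (GRCm38, plus strand). Its promoter is printed because the gene is a known target of FOXO transcription factors. The 250 bases before the first of 2 RefSeq starts (chr2:128125788-128126037, GRCm38.p6, plus strand) hold 1 match to the FOXO core motif TGTTTAC, read on either strand. The match is in capitals, here on the opposite strand, and begins at base -227 counted from the start.
Bcl2l11: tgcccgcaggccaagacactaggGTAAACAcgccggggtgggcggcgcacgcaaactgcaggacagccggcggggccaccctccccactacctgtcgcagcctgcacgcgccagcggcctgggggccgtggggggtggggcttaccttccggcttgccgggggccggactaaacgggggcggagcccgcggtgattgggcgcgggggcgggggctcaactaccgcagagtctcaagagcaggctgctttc
Of 32851 such windows of all genes 3.17% hold that motif. The window before the second Bcl2l11 start holds no match, and the Casp4 window printed further below holds 1.

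Bik, a BH3-only protein of the endoplasmic reticulum, had 9.51, 16.5 and 14.7 CPM in mNS and 4.55, 2.84 and 3.76 CPM in GL261. The groups did not overlap, and the ratio was 3.65 (log2 difference 1.61 ± 0.21, limma adjusted p = 0.000217). Bmf, which senses loss of attachment, had 8.53, 6.65 and 7.29 CPM in mNS and 2.53, 1.79 and 2.31 CPM in GL261. All mNS values again lay above all GL261 values (ratio 3.38, log2 difference 1.40 ± 0.15, limma adjusted p = 5.99e-05). Bid, which carries the signal of caspase 8 to the mitochondrion, rose to 42.4 ± 7.54 CPM in mNS, against 22.4 ± 1.32 CPM in GL261 (log2 difference 0.88 ± 0.13). Of its exon bases 628 overlap those of Bcl2l13 on the other strand, and the sources used here do not give whether reads were counted by strand. Bad, which is controlled by survival kinases, was not called, with 21.8 ± 0.887 CPM in mNS and 19.1 ± 1.57 CPM in GL261 (log2 difference 0.18). Bbc3, which encodes the BH3-only protein PUMA and falls outside the symbol rule, also rose, to 15.2 ± 3.59 CPM in mNS, against 4.72 ± 0.490 CPM in GL261 (log2 difference 1.49). Hrk, a BH3-only gene known from neurons, fell to 1.15 ± 0.293 CPM in mNS, against 2.41 ± 0.0392 CPM in GL261 (log2 difference -0.68); it was picked out after its value was seen.

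The effectors that open the mitochondrial membrane did not share a direction. Bok, an effector relative of BAX found at the endoplasmic reticulum and Golgi, had 10.5, 14.2 and 11.1 CPM in mNS, against 32.0, 37.8 and 43.0 CPM in GL261. Its GL261 values were all at least 2-fold above its mNS values, and it fell 3.15-fold (log2 difference -1.58 ± 0.14, limma adjusted p = 2.25e-05). Bax had 43.4, 38.8 and 44.0 CPM in mNS and 58.1, 57.0 and 55.2 CPM in GL261, a fall without overlap (log2 difference -0.43 ± 0.08, limma adjusted p = 0.00132). Bak1 had 76.4, 83.3 and 83.3 CPM in mNS and 69.9, 72.2 and 71.7 CPM in GL261 (log2 difference 0.18 ± 0.07, limma adjusted p = 0.0381). The rise of Bak1 is not firm: over the 16 alternatives at the same threshold its adjusted p lay between 0.00611 and 0.146, and the call was lost without any single GL261 library and without mNS replicate 2 or 3.

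Of the 4 anti-apoptotic genes listed, Mcl1 fell and the others were not called, where 64.3% of all genes were called. Mcl1, whose short-lived product binds BIM and BAK, had 156, 160.1 and 147 CPM in mNS and 223, 255 and 245 CPM in GL261. The groups did not overlap (1.56-fold lower, log2 difference -0.64 ± 0.07, limma adjusted p = 6.09e-05). Bcl2l1, which encodes BCL-XL, had 129, 143 and 129 CPM in mNS and 139, 130.1 and 135 CPM in GL261, with values that interleave (log2 difference -0.01 ± 0.07, limma adjusted p = 0.890). Bcl2l2, which encodes BCL-W, had 73.9, 74.6 and 74.8 CPM in mNS and 69.0, 74.2 and 82.1 CPM in GL261 (log2 difference -0.01 ± 0.08). The sign of Bcl2l1 and Bcl2l2 turned when the libraries were rescaled to a common sum. Bcl2 itself had 69.7, 59.2 and 50.6 CPM in mNS and 55.5, 51.4 and 50.4 CPM in GL261 (log2 difference 0.18 ± 0.11, limma adjusted p = 0.206). The mNS library of passage 72 stands highest for Bcl2 and that of passage 85 is within the GL261 values; without that library, mNS replicate 3, Bcl2 was called higher (log2 difference 0.29).

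Levels of different genes can be compared only per length, here as CPM per kb of the union of a gene's GENCODE exons. On that scale Mcl1 was the highest Bcl2 family gene, at 45.2 in mNS and 70.5 in GL261. It was followed in mNS by Bak1 (33.7), Bcl2l1 (29.2) and Bax (26.7), and in GL261 by Bax (36.0), Bak1 (29.6) and Bcl2l1 (29.4). The libraries overlap between Bak1 and Bcl2l1 in GL261 but not in mNS. Bmf was lowest in both, at 1.43 in mNS and 0.421 in GL261, followed by Bcl2l11 at 2.20 in mNS and 0.482 in GL261. Summed over the 5 BH3-only genes, the level was 28.6 to 34.8 CPM per kb in mNS libraries and 16.5 to 17.3 in GL261 libraries. The 4 anti-apoptotic genes summed to 93.4 to 101 CPM per kb in mNS and 117 to 125 in GL261. Mcl1 alone gave 45.2 in mNS and 70.5 in GL261 of that, and the other anti-apoptotic genes were not called. The 3 effectors summed to 65.0 to 68.6 CPM per kb in mNS and 83.3 to 88.2 in GL261. Bok gave 6.49 in mNS and 20.4 in GL261 of that, while Bak1 went the other way, with 33.7 in mNS and 29.6 in GL261.

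**Figure D2:**
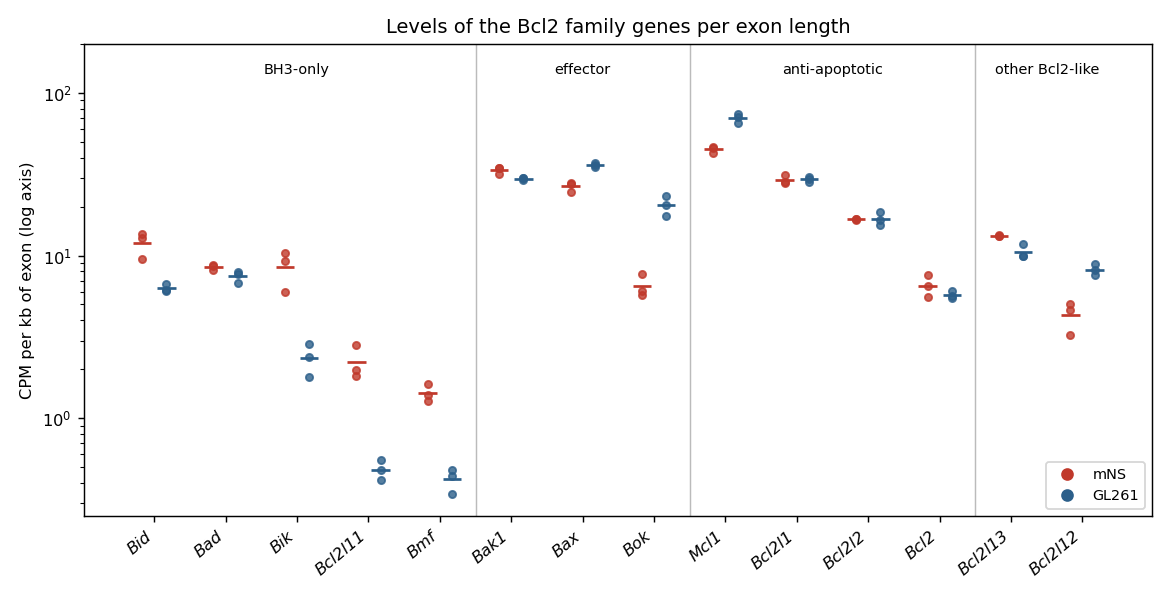
Levels of 14 Bcl2 family genes in CPM per kb of exon on a log axis, with 1 point per library and a line at the mean of 3; mNS (red) is left of GL261 (blue). Bmf and Bcl2l11 lie lowest and are separated between the groups, whereas the points of Bcl2l1, Bcl2l2 and Bcl2 interleave.

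Both remaining Bcl2-like genes were called, where 64.3% of all genes were called. Bcl2l12, a glioma-expressed inhibitor of caspases in human cells, fell to 8.51 ± 1.86 CPM in mNS, against 16.1 ± 1.25 CPM in GL261 (log2 difference -0.86 ± 0.16, limma adjusted p = 0.00138). Its exons share 88 bases with Irf3 on the other strand, which fell as well (log2 difference -0.59). Bcl2l13, a mitophagy receptor, rose to 120.4 ± 0.421 CPM in mNS, against 96.1 ± 9.91 CPM in GL261 (log2 difference 0.33 ± 0.08).

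The components of the apoptosome and the proteins released from mitochondria changed less uniformly. Apaf1, the scaffold of the apoptosome, had 83.8, 84.8 and 78.9 CPM in mNS and 79.9, 83.3 and 78.4 CPM in GL261, values that overlap (log2 difference 0.03 ± 0.06, limma adjusted p = 0.661). Diablo, which encodes the IAP antagonist SMAC, was likewise not called, with 52.6 ± 1.27 CPM in mNS and 50.9 ± 2.38 CPM in GL261 (log2 difference 0.05). Endog, a mitochondrial nuclease, had 1.81, 1.31 and 1.27 CPM in mNS and 4.77, 4.11 and 4.26 CPM in GL261. It fell 2.99-fold without overlap (log2 difference -1.13 ± 0.15, limma adjusted p = 0.000200). Of its exon bases 35.7% are shared with a gene on the other strand that the table lists as D2Wsu81e, which was not called (log2 difference -0.04). Among the apoptosis-inducing factor genes, Aifm1, needed for respiratory chain assembly, rose to 74.1 ± 5.38 CPM in mNS, against 47.3 ± 3.75 CPM in GL261 (log2 difference 0.64 ± 0.09). Aifm3 had 2.26, 3.402 and 5.03 CPM in mNS and 0.298, 0.149 and 0.217 CPM in GL261, a ratio of 16.1 that rests on 9 reads over the GL261 libraries (log2 difference 1.86 ± 0.23, limma adjusted p = 0.000128). Aifm2, the ferroptosis suppressor FSP1, was not called (log2 difference 0.26), and was called higher without GL261 replicate 1.

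None of the 3 initiator caspases was called, where 64.3% of all genes were called. Casp9, the apoptosome caspase, had 11.1, 15.0 and 15.4 CPM in mNS and 13.9, 11.7 and 11.3 CPM in GL261 (log2 difference 0.15, limma adjusted p = 0.405). Casp8, the caspase of death receptors, had 31.5, 30.2 and 31.6 CPM in mNS and 38.9, 33.9 and 33.2 CPM in GL261. Its values do not overlap, but the difference missed the threshold (log2 difference -0.17 ± 0.09, limma adjusted p = 0.114). Casp2, a caspase of the DNA damage response, had 99.8, 84.4 and 80.6 CPM in mNS and 82.6, 82.0 and 79.1 CPM in GL261 (log2 difference 0.11, limma adjusted p = 0.285). Casp6, an executioner caspase known to cleave lamins, had 14.3, 20.3 and 21.3 CPM in mNS and 10.7, 12.7 and 11.6 CPM in GL261, a rise without overlap (log2 difference 0.62 ± 0.16, limma adjusted p = 0.00745).

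The inflammatory caspases gave some of the widest differences, and in opposite directions although the 3 genes are neighbours. Casp1, the caspase of inflammasomes, had 19.7, 20.3 and 22.6 CPM in mNS, against 3.21, 1.57 and 2.10 CPM in GL261 (ratio 9.10, log2 difference 2.76 ± 0.18, limma adjusted p = 3.08e-06). Casp4, known in mice as caspase 11 and a sensor of lipopolysaccharide in the cytosol, had 5.06, 10.1 and 11.9 CPM in mNS and 1.79, 1.42 and 1.73 CPM in GL261. All mNS values were above all GL261 values, with the passage 72 library lowest in mNS (ratio 5.46, log2 difference 1.85 ± 0.26, limma adjusted p = 0.000310). Casp12, a relative linked to the endoplasmic reticulum, had 1.28, 2.86 and 3.54 CPM in mNS, against 24.5, 20.9 and 25.8 CPM in GL261. It fell 9.25-fold without overlap (log2 difference -2.85 ± 0.24, limma adjusted p = 1.30e-05). The macrophage markers listed did not share a direction: Cd68 rose (log2 difference 1.19), Lyz2 fell (log2 difference -1.45), and Csf1r had 2 reads in mNS and 68 in GL261, while Ptprc, Itgam and Aif1 are not listed. Their part in the caspase differences was not tested.

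In GRCm38 the 3 genes follow each other on the plus strand of chromosome 9, Casp1 at 5298517 to 5307265, Casp4 at 5308828 to 5336783 and Casp12 at 5345430 to 5373032. The gaps are 1562 bases between Casp1 and Casp4 and 8646 bases between Casp4 and Casp12, with no protein-coding gene in either. The 250 bases before each RefSeq start are printed to show these neighbouring promoters side by side; capitals mark CG dinucleotides, the sites of most DNA methylation in mammals. The windows are chr9:5298267-5298516, chr9:5308599-5308848 (the first of 2 annotated starts) and chr9:5345226-5345475, all on the plus strand of GRCm38.p6.
Casp1: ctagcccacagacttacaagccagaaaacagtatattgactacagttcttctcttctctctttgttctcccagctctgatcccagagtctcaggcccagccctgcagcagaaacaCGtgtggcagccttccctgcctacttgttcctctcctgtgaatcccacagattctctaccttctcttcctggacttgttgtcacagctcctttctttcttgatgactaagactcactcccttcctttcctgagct
Casp4: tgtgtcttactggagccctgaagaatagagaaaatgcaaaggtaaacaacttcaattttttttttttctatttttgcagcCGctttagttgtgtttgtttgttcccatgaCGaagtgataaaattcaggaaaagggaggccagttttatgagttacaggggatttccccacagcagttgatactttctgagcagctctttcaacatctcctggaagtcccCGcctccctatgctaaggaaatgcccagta
Casp12: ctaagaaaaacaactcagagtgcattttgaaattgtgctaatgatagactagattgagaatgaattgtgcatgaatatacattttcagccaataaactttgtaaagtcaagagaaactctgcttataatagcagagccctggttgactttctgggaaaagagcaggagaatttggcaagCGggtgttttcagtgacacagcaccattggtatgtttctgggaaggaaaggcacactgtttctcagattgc
Casp1 and Casp12 hold 1 CG each and Casp4 holds 3, where the median of all 32851 windows is 6. The Casp4 window holds 3 matches to the 10-base NF-κB motif read on either strand, GGGGATTTCC at base -93, GGGATTTCCC at -92, which overlaps it, and GGAAGTCCCC at -39. Neither of the other windows holds one, and 7.25% of all windows do.

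Gasdermin D (Gsdmd), the pore former that caspases 1 and 4 cleave, was not called, with 14.4, 22.7 and 25.2 CPM in mNS and 22.7, 20.0 and 22.3 CPM in GL261 (log2 difference -0.09, limma adjusted p = 0.684). Its sign turned without mNS replicate 1. Gasdermin E, another pore former, is listed as Dfna5 and rose to 24.95 ± 1.32 CPM in mNS, against 9.68 ± 1.43 CPM in GL261 (log2 difference 1.29, limma adjusted p = 2.47e-05); it was picked out after its value was seen.

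**Figure D3:**
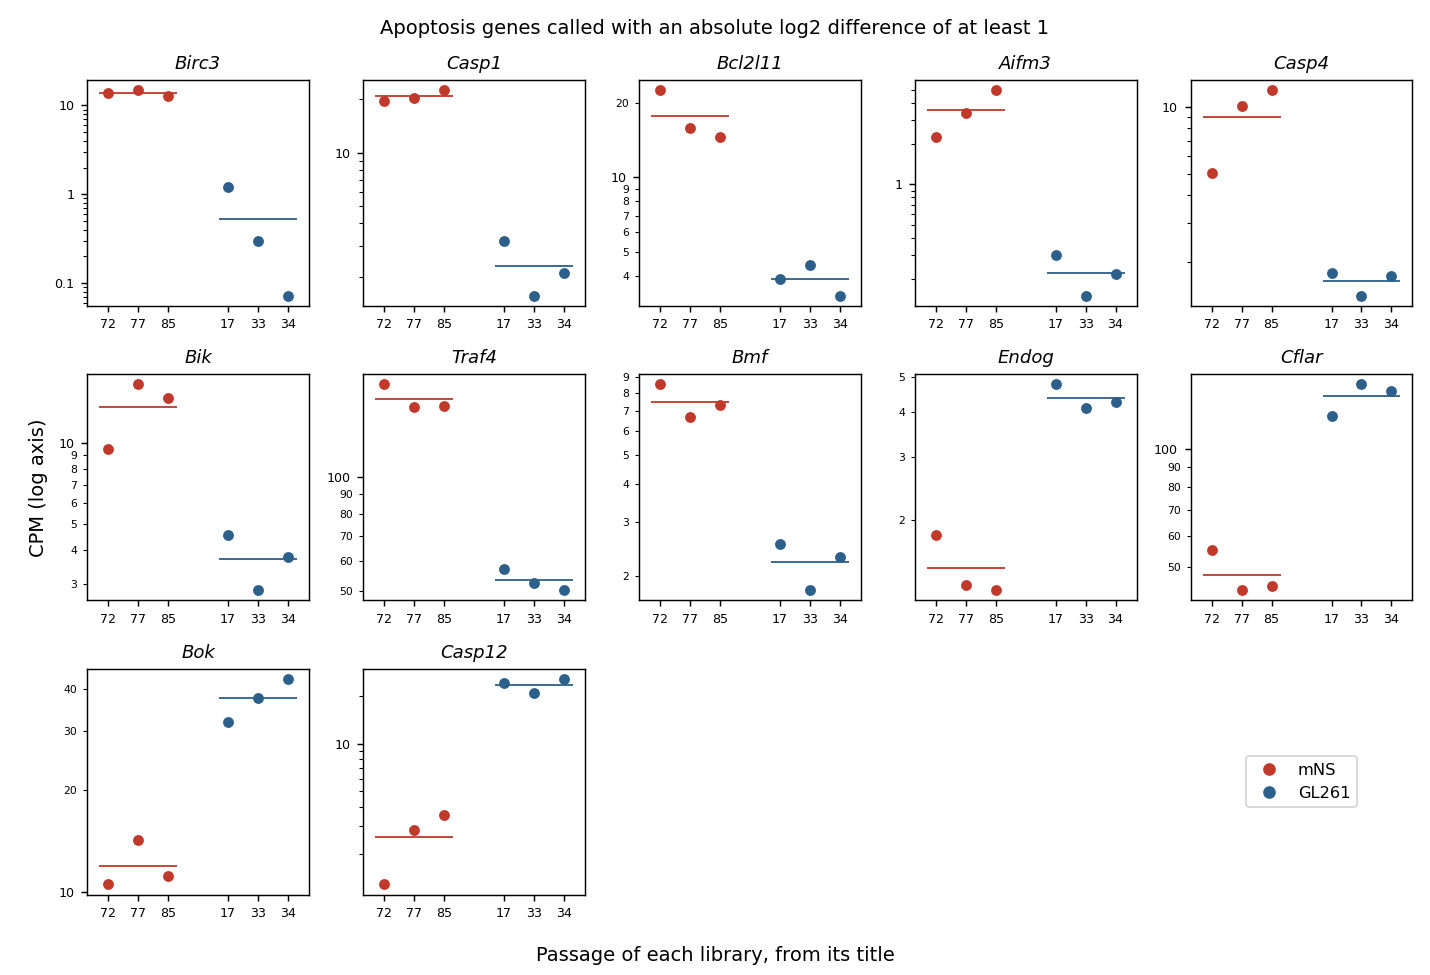
CPM on a log axis (each panel with its own range) for 12 of the 13 apoptosis genes called with an absolute log2 difference of at least 1; each point is a library, placed by passage, and each line is the mean of 3. In every panel all mNS points (red) lie on the same side of all GL261 points (blue). The choice of the genes by these same values all but required that separation. The scatter is widest for Birc3 in GL261.

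Of the 4 IAP genes, 3 rose in mNS and none fell, where 32.2% of all genes rose. Birc3, which encodes cIAP2, a ubiquitin ligase of TNF receptor complexes, had 13.9, 14.9 and 12.7 CPM in mNS, against 1.19, 0.299 and 0.0722 CPM in GL261. The mNS values were close together, whereas GL261 held 16, 4 and 1 reads. The ratio of means was 26.5, and 74.5 without GL261 replicate 1, the passage 17 library (log2 difference 3.35 ± 0.25, limma adjusted p = 6.30e-06). Its neighbour Birc2, which encodes the related cIAP1, had 40.01, 42.8 and 45.5 CPM in mNS and 32.0, 38.9 and 39.7 CPM in GL261, and was not called (log2 difference 0.21 ± 0.10, limma adjusted p = 0.0989). Birc2 was called higher when the libraries were rescaled to a common sum. Both lie on the minus strand of chromosome 9, Birc2 at 7818227 to 7837064 and Birc3 at 7848699 to 7873186, with 11634 bases and no protein-coding gene between them. Per kb of exon, Birc3 stood at 2.76 in mNS and 0.104 in GL261, below Birc2 in both (9.34 in mNS and 8.05 in GL261).

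The promoters of this pair are shown because these neighbours are close relatives and only Birc3 was called; capitals again mark CG dinucleotides. The windows are chr9:7837058-7837307 (the first of 2 annotated starts) and chr9:7873171-7873420, both read on the minus strand of GRCm38.p6.
Birc2: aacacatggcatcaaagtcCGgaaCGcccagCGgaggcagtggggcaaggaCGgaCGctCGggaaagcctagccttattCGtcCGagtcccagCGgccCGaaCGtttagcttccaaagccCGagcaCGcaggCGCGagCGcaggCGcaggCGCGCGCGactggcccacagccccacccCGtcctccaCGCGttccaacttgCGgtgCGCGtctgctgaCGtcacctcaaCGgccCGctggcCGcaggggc
Birc3: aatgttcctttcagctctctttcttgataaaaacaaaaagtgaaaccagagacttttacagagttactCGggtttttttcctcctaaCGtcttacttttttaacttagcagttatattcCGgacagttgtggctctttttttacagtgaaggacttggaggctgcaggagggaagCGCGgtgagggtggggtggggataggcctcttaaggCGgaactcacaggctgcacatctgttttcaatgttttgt
The Birc2 window holds 31 CG dinucleotides and the Birc3 window 6. Neither holds a match to the NF-κB motif within these bases.

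Xiap, the inhibitor that binds caspases directly, had 102, 105 and 102 CPM in mNS and 60.1, 71.5 and 59.5 CPM in GL261. It rose 1.62-fold without overlap (log2 difference 0.69 ± 0.08, limma adjusted p = 0.000115). Birc6, which encodes the giant ubiquitin ligase BRUCE, had 958, 846 and 861 CPM in mNS and 684, 608 and 593 CPM in GL261 (log2 difference 0.50 ± 0.08, limma adjusted p = 0.000442). It gave the highest CPM of the 52 genes, from the longest exon union (25772 bases). Xaf1, an antagonist of XIAP from the related lists, fell to 6.74 ± 3.06 CPM in mNS, against 52.7 ± 6.75 CPM in GL261 (log2 difference -2.86).

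Of 5 genes grouped as adaptors and regulators of death receptors, 4 fell in mNS and none rose, where 32.1% of all genes fell. The group is mixed, as it also holds Casp8ap2 and Dapk3, whose other roles are given below. Cflar, which encodes FLIP, a relative of caspase 8 without protease activity that modulates its activation, had 55.2, 43.8 and 44.8 CPM in mNS, against 122, 146 and 141 CPM in GL261. The groups were well apart and Cflar fell 2.84-fold (log2 difference -1.49 ± 0.11, limma adjusted p = 5.30e-06). Cflar lies on chromosome 1 at 58711508 to 58758884 (plus strand), 36489 bases before Casp8, with no protein-coding gene between them; Casp8 was not called. Fadd, the adaptor between death receptors and caspase 8, had 10.6, 11.8 and 9.70 CPM in mNS and 17.7, 21.003 and 21.3 CPM in GL261, a 1.87-fold fall without overlap (log2 difference -0.84 ± 0.12, limma adjusted p = 0.000296). Casp8ap2, a large nuclear protein that also serves histone gene transcription, fell to 137 ± 17.6 CPM in mNS, against 188 ± 5.04 CPM in GL261 (log2 difference -0.46). Dapk3, a death-associated kinase that phosphorylates myosin light chain, fell to 34.3 ± 2.57 CPM in mNS, against 42.2 ± 1.89 CPM in GL261 (log2 difference -0.29, limma adjusted p = 0.0148). The Dapk3 call was lost without GL261 replicate 3, mNS replicate 2 or mNS replicate 3, and under the common sum (adjusted p from 0.00758 to 0.0655 over the 16 alternatives). Tradd, the adaptor of TNF receptor 1, was not called (log2 difference -0.05), and its sign turned under the common sum and without mNS replicate 1.

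Among the RIP kinases, Ripk2 changed most. Ripk2, which relays signals from the NOD sensors of bacterial peptides, had 61.2, 62.4 and 55.4 CPM in mNS and 37.2, 30.5 and 28.8 CPM in GL261. It rose 1.86-fold without overlap (log2 difference 0.88 ± 0.11, limma adjusted p = 0.000125). Ripk1, the kinase at the branch between survival, apoptosis and necroptosis, had 74.1, 70.1 and 65.7 CPM in mNS and 59.3, 61.3 and 60.6 CPM in GL261 (log2 difference 0.21 ± 0.07, limma adjusted p = 0.0291). Its adjusted p lay between 0.00548 and 0.0946 over the 16 alternatives, and the call was lost without GL261 replicate 2 or 3 and without mNS replicate 1 or 2. Ripk3, the necroptosis kinase, had 10.8, 16.4 and 20.2 CPM in mNS and 18.4, 19.2 and 21.5 CPM in GL261, which overlap (log2 difference -0.34, limma adjusted p = 0.162). The passage 72 library was lowest, and Ripk3 was called lower without mNS replicate 3 (log2 difference -0.53). Mlkl, the pore former of necroptosis, was not called, with 75.0 ± 4.89 CPM in mNS and 83.8 ± 4.20 CPM in GL261 (log2 difference -0.16).

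The TRAF genes, adaptors of TNF and interleukin receptors, were grouped with the TRAF-interacting genes Traf3ip1 and Traf3ip2, 9 genes in all. In this group 2 rose (Traf4 and Traf3ip1), 1 fell and 6 missed the threshold. Of all genes 64.3% were called, 32.2% as higher and 32.1% as lower. Traf4, a family member best known from epithelial and neural development, had 175, 152 and 153 CPM in mNS, against 57.3, 52.5 and 50.4 CPM in GL261. It rose 2.998-fold with the groups far apart and had the lowest adjusted p of the 52 genes (log2 difference 1.57 ± 0.08, limma adjusted p = 7.62e-07). Traf4 lies on chromosome 11 at 78158499 to 78165589 (minus strand) and, at 48.6 CPM per kb, was the most abundant of the 52 genes per length in mNS, against 16.2 in GL261. Traf3ip1, which encodes a protein of ciliary transport, rose to 19.4 ± 0.770 CPM in mNS, against 14.5 ± 1.37 CPM in GL261 (log2 difference 0.39). Traf1, an adaptor induced by NF-κB, had 1.21, 2.01 and 2.41 CPM in mNS and 3.58, 2.99 and 2.82 CPM in GL261 (log2 difference -0.54 ± 0.19, limma adjusted p = 0.0335). Of the 6 fits that left out a library the Traf1 call held only without mNS replicate 3. The call was also lost under DESeq2 and under the common sum. Traf1 was not tested under the 5 CPM filter, and its adjusted p lay between 0.0189 and 0.0990 over the other alternatives.

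The uncalled TRAF and TRAF-interacting genes had log2 differences between -0.16 (Traf2, the partner of the cIAPs) and 0.24 (Traf5). Traf6, which relays Toll-like and interleukin 1 receptor signals, stood at 39.9 ± 1.96 CPM in mNS and 35.9 ± 3.62 CPM in GL261 and was called higher without GL261 replicate 1 (log2 difference 0.23). Traf3, a brake on non-canonical NF-κB signalling, had 78.8, 80.5 and 83.2 CPM in mNS and 67.6, 92.5 and 96.4 CPM in GL261. The passage 17 library was the lowest for Traf3, and without it, GL261 replicate 1, Traf3 was called lower in mNS (log2 difference -0.22). The sign of Traf3 and of Traf7 turned under the common sum.

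Summed by role in CPM per kb, the TRAF and TRAF-interacting group reached 117 ± 3.12 in mNS and 85.0 ± 4.40 in GL261. Without Traf4 the other 8 genes summed to 68.2 ± 0.743 in mNS and 68.8 ± 5.48 in GL261. The IAP genes summed to 57.5 ± 1.73 in mNS and 39.3 ± 1.12 in GL261. Of these sums Birc6 gave 34.5 in mNS and 24.4 in GL261. The death receptor adaptors and regulators summed to 49.0 ± 3.08 in mNS and 69.2 ± 1.30 in GL261. Casp8ap2 gave 20.0 in mNS and 27.5 in GL261 of that, and Dapk3 gave 13.5 in mNS and 16.7 in GL261. The initiator caspases summed to 25.9 ± 1.08 in mNS and 26.1 ± 1.55 in GL261, with ranges that overlap.

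**Figure D4:**
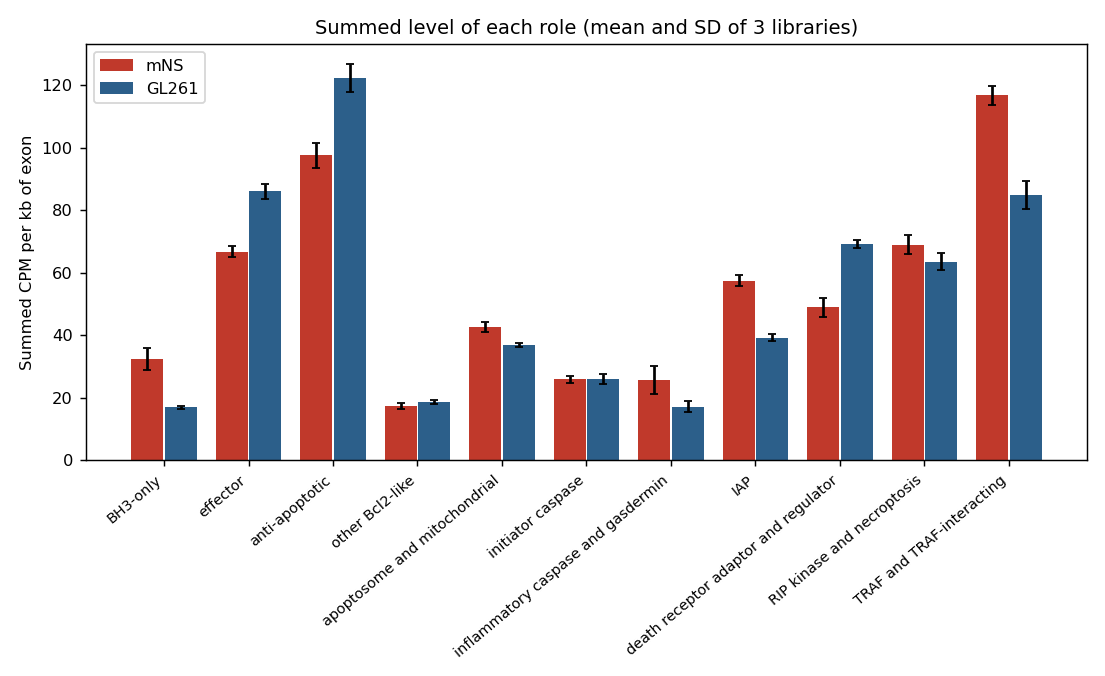
Summed CPM per kb of exon over the genes of 11 roles, as the mean of 3 libraries with the SD, mNS (red) left of GL261 (blue). BH3-only, IAP and TRAF and TRAF-interacting bars are higher in mNS, and effector, anti-apoptotic and death receptor adaptor bars are lower. Without Traf4 the TRAF and TRAF-interacting sums would be 68.2 in mNS and 68.8 in GL261. Mcl1 gave 45.2 in mNS and 70.5 in GL261 of the anti-apoptotic bars. Birc6 gave 34.5 in mNS and 24.4 in GL261 of the IAP bars. Bok gave 6.49 in mNS and 20.4 in GL261 of the effector bars, while Bak1 went the other way, with 33.7 in mNS and 29.6 in GL261. The bars carry no test.

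Over all the promoters of the family, CG-rich windows were common. Of the 52 genes 45 had a RefSeq window, 58 windows in all, with a median of 13 CG dinucleotides in 250 bases, against 6 for all windows. The GC box CCGCCC, read on either strand, was found in 56.9% of these windows and in 32.7% of all windows. All windows cover 27025 genes, whereas the table lists 12151, so unlisted genes are part of that background. Windows of listed genes alone were not counted, so these shares cannot be read as particular to the apoptosis genes. The 11 genes with the larger changes that had a window held a median of 7 CG dinucleotides (1 to 24), and the other 34 genes a median of 17.5 (0 to 49). For a gene with several windows the window listed first was used here, which is not always the most upstream one. For Bcl2l1 that window held 0 CG and the most upstream one 12. The TATA box letters TATAAA, read on either strand, were found for Bcl2l12, Cflar and Xiap, 5.17% of the windows, against 12.4% of all. These matches begin far from the start, at base -176 for Bcl2l12, at -134 and -132 for Cflar and at -249 for Xiap. These are matches of letters in a fixed window and describe no binding.

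Within the groups, the libraries of different passages were mostly close for these genes, and each passage has 1 library, so that its values carry no test. The highest mNS library was more than 1.5 times the lowest for 10 of the 52 genes, and the highest GL261 library for 5. In mNS the largest such ratios were those of Casp12 (2.76), Casp4 (2.35) and Aifm3 (2.22), each lowest at passage 72 and highest at passage 85. Traf1 (1.99), Ripk3 (1.88), Gsdmd (1.75) and Bik (1.73) were also lowest at passage 72, whereas Bcl2l11 (1.55) was highest there. In GL261 the ratio was 16.5 for Birc3 and 2.04 for Casp1, both highest at passage 17, and 1.63 for Traf3ip2, lowest at passage 17. In none of the 13 genes with larger changes did the groups overlap, which the choice of these genes by the same values all but required.

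Related genes outside the symbol rule were counted in the same fit from 10 lists of the pathway. Of 187 such genes tested, 62 rose, 60 fell and 65 were not called; the called share of 65.2% is close to the background of 64.3%. With the libraries rescaled to a common sum, 73 rose and 45 fell, and of all tested genes 4460 rose and 3197 fell. Without the rescaling 3865 of all tested genes rose and 3849 fell. For the lists that follow, 32.2% of all tested genes rose and 32.1% fell in the main fit. Among receptors and ligands of the TNF family 1 of 12 tested rose and 5 fell. Ngfr, the p75 neurotrophin receptor, fell to 28.4 ± 5.201 CPM in mNS, against 339 ± 18.4 CPM in GL261 (log2 difference -3.55), and Tnfrsf12a, the TWEAK receptor, fell 4.53-fold. Tnfrsf11b, the decoy receptor osteoprotegerin, fell 103-fold, on 9 reads in mNS, and 211-fold without mNS replicate 1. Tnfrsf10b, the mouse TRAIL receptor, had a log2 difference of -0.69 (limma adjusted p = 0.0450) and lost its call in 9 of 16 alternatives, among them the fits without any single GL261 library and without mNS replicate 1 or 2.

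In the NF-κB and TNF receptor complex list 13 of 30 rose and 6 fell, where 32.2% of all genes rose and 32.1% fell. The feedback inhibitor Tnfaip3 (A20) rose to 20.6 ± 2.48 CPM in mNS, against 4.64 ± 1.26 CPM in GL261 (log2 difference 1.96), and the inhibitor gene Nfkbie rose 3.75-fold and Tank 3.13-fold. Cyld, a deubiquitinase that dampens the pathway, fell to 81.1 ± 3.38 CPM in mNS, against 208 ± 8.06 CPM in GL261. Of 30 genes of other BH3-only, BNIP and Bcl2-binding proteins 12 rose and 14 fell. Usp9x, the deubiquitinase that stabilises MCL1, rose 2.76-fold to 1154 ± 59.4 CPM in mNS, against 418 ± 14.2 CPM in GL261. Among calcium channels of the endoplasmic reticulum, Itpr2 rose 2.91-fold, and Itpr3 fell 6.91-fold, or 13.2-fold without mNS replicate 1.

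Of 15 genes of mitochondrial release 6 rose and 2 fell, where 32.2% of all genes rose and 32.1% fell. Cycs, which encodes cytochrome c, stood at 18.6 ± 1.93 CPM in mNS and 11.7 ± 2.09 CPM in GL261 (log2 difference 0.63). The inner membrane fusion gene Opa1 rose 1.61-fold, the fission gene Dnm1l 1.45-fold and the import gene Chchd4 1.68-fold. Of 19 other IAP and caspase regulators 5 rose and 8 fell. Card14, a scaffold of NF-κB signalling, had 342 reads in mNS and 9 in GL261 (38.8-fold higher, and 76.0-fold without GL261 replicate 3), Cradd, the adaptor of caspase 2, fell 2.87-fold, and Card10 fell 1.95-fold. Of 21 caspase substrates and execution genes 6 rose and 8 fell; the count includes Mst1, a risen gene that shares only an alias with the apoptotic kinase Stk4, and Cad, a pyrimidine synthesis gene that was not called. The lamin gene Lmna fell to 54.1 ± 6.92 CPM in mNS, against 569 ± 16.8 CPM in GL261, the phosphatidylserine binder Anxa5 fell 9.23-fold, and the channel gene Panx1 fell 31.0-fold, on 9 reads in mNS. The kinase gene Prkcd rose 3.26-fold.

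Of 10 inflammasome genes 2 rose and 4 fell, where 32.2% of all genes rose and 32.1% fell. The nucleic acid sensor Zbp1 fell to 1.09 ± 0.103 CPM in mNS, against 16.9 ± 1.15 CPM in GL261, Tlr3 fell 1.74-fold and Nek7, a partner of NLRP3, 1.73-fold, while the mitochondrial protein gene Nlrx1 rose 1.93-fold. Of 19 p53 targets and regulators 6 rose, among them Bbc3, Trp53inp1 (3.75-fold) and Sesn1 (2.51-fold), and 7 fell, among them Phlda3 (3.26-fold). Of 14 genes of endoplasmic reticulum stress 6 rose and 4 fell, with rises of Trib3 (3.21-fold), Ero1l (2.17-fold) and Spns1 (2.11-fold). Of 21 genes in the list of survival kinases and genes related to them, 8 rose and 3 fell. The list is mixed, and of its risen genes Foxo1, Ywhaz, Mapk9 and Map2k4 are not survival kinases. Sgk1, a kinase of the PI3K pathway, rose to 173 ± 16.7 CPM in mNS, against 18.5 ± 2.02 CPM in GL261 (log2 difference 3.16), Pim1 rose 3.46-fold and the transcription factor gene Foxo1 2.58-fold, and Sgk3 fell 2.29-fold.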

How the data were processed

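RNA of mNS and GL261 cells was sequenced from 3 stranded, ribosomal RNA-depleted single-end libraries each, per the labels' protocols and series text. Tools named in the submitters' processing notes, without roles, are TopHat2, HTSeq 0.5.3p9, edgeR 3.4.2, with build mm10; the series text describes TMM factors and an exact test. The deposited table holds a normalised signal in CPM per gene and library, scaled by the authors with TMM factors, and its columns sum to 968335 to 1037864. Which filter left 12151 genes is not stated in those sources. Every value was a whole number of reads within 0.001, which gave the depth of each library; reads are not independent molecules.

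The 12006 genes whose mean over the libraries reached 1 CPM entered a limma 3.58.1 fit of log2(CPM + 1) in R 4.3.3 (two-sided moderated tests, eBayes with an intensity trend), and p-values were adjusted by Benjamini-Hochberg. That scale understates changes of low genes; folds are ratios of mean CPM. Alternatives were edgeR 4.0.16 and DESeq2 1.42.0 on recovered reads, other pseudocounts, filters, scalings and moderation, a stricter threshold and leaving out each library; the tests were tried on simulated data. Positions and exon lengths came from GENCODE M21 (GRCm38), all 52 genes matched, and promoter bases from RefSeq GRCm38.p6; the gene models used for counting may differ. Tables and plots were made in Python 3.11.15. Values of 2 of the 52 genes are not reported here, although counts include them. Members and lists were chosen with earlier results of these data known. Every listed member may be named; values by library are given for called members with an absolute log2 difference of at least 1 and for the central Bcl2, caspase, IAP and adaptor genes, with Birc6, Gsdmd, Ripk2, Ripk3, Traf1 and Traf3 added after their values were seen; each related list names up to 4 called genes with the largest differences and a higher mean of at least 5 CPM.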

Additional observations from a re-analysis of the deposited data

How the results depend on the processing

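Under 17 alternatives (other tests on recovered reads, pseudocounts of 0.5 and 0.1 CPM, other filters, scalings and moderation, an adjusted p under 0.01, and 6 fits that each left out a library) 27 of the 31 called apoptosis genes kept direction and call wherever they were tested, and the others, Bak1, Ripk1, Traf1 and Dapk3, kept their direction but lost the call under some. No called gene changed sign. The number of risen genes lay between 17 and 21 and that of fallen genes between 10 and 12, and edgeR's quasi-likelihood test called the same 31 genes as limma. A mean filter of 5 CPM left the genes below it untested. Signs turned only for genes without a call. Under the common sum the log2 difference became 0.079 for Bcl2l1, 0.080 for Bcl2l2, 0.037 for Tradd, 0.027 for Traf3 and 0.032 for Traf7. With a library left out it ranged from -0.061 to 0.015 for Bcl2l1, from -0.068 to 0.056 for Bcl2l2, from -0.24 to 0.14 for Gsdmd, from -0.14 to 0.030 for Tradd, from -0.22 to 0.031 for Traf3 and from -0.065 to 0.27 for Traf3ip2; the cause was not tested. Rescaling to a common sum moved the median difference of all genes by 0.08. No paired analysis was possible because the labels give the groups no shared replicate numbers. Depth limits the folds of Birc3 and Aifm3, which had few reads in GL261.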
